A study of Mus musculus with 36 samples.

Results

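Phalanx-biased regions are stretches of accessible chromatin that were called in the digit bones and rarely in the bones that carry them. The 12 deposited lists of reproducible ATAC-seq peaks, 1 for each skeletal element and digit, were merged wherever peaks shared at least 1 bp. This gave 65543 union regions. A region was kept where at least 5 of the 6 phalanx lists and at most 1 of the 6 metapodial lists called it. By that rule 691 of the 65543 regions were kept, or 1.05%, on mouse build mm10. The members were therefore chosen by their calls in these same lists, so the contrast between phalanx and metapodial lists, and differences between lists in how many members they called, are described below and not tested.

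ATAC-seq cuts open chromatin with a transposase, and a peak is a place where cuts pile up. The tissue was cartilage of the autopod, the hand and foot, from FVB/NJ mouse embryos at E15.5, and its labelled cell type is chondrocytes. No group was mutant or treated. The groups are the foot phalanges of digits I, III and V, the hand phalanges of digits I, III and V, the metatarsals of digits I, III and V, and the metacarpals of digits I, III and V, with 3 libraries each. Each library pooled right and left elements of 3 to 5 embryos of 1 litter, taken from 6 to 10 limbs. The phalanges of a digit were pooled too, proximal and distal in digit I and with the intermediate one in digits III and V, so no single phalanx can be told apart. Each peak list joins the 3 libraries of its group. A list is thus 1 observation, with no replicate spread of its own and no read depth given. In bulk tissue, a site open in fewer cells and a site less open in every cell cannot be told apart.

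Phalanges and metapodials (metatarsals in the foot, metacarpals in the hand) begin as cartilage condensations that joints later divide, and each grows by a growth plate in which chondrocytes divide, enlarge and are replaced by bone. Phalanges form last and farthest from the body, at the digit tip, from progenitors that respond to BMP and WNT signals and express distal limb homeobox genes such as Msx1 and Msx2. Most regulatory differences between such closely related skeletal elements are thought to lie in distal enhancers, which can act over long distances and need not act on the nearest gene.

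The 12 lists held between 36789 and 47375 peaks for phalanges and between 36194 and 53276 peaks for metapodials. The lowest −log10 p that a list kept ran between 23.0 in metacarpal V and 49.6 in metacarpal I. Read depth is unknown, so these minima do not rank the lists by how weak a peak they admit. Cartilage genes served as a check of the tissue label and not as members. Of 43 regions nearest Sox9, the regulator of chondrocyte fate, 7 were called in all 12 lists, and of 5 nearest Col2a1, the main cartilage collagen, 3 were. In all, 23353 regions were called in every list.

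Few of these regions lie over a promoter, and the same holds for other regions called in 5 to 7 lists. A gene start or end lay in 4.78% of members, 3.46% of those regions and 21.4% of all regions. The share was 1.97% in regions of the opposite rule, at least 5 metapodial and at most 1 phalanx lists. Of the 691, 24 contained the start of a coding gene in the RefSeq promoter table, which lacks 4408 of 21900 coding genes. Of those promoters, 4 are shown here, picked as follows and not by how close the peak lies to the start. Diras1 and Ablim1 were the genes whose starts lay in members called by every phalanx list and by no metapodial list. Ccdc182 was 1 of 38 genes with 2 members and came early in the alphabetical order that broke their tie, and Bhlha9 encodes a limb bHLH factor whose copy-number gain is associated with split hand and foot in humans. Diras1, Ablim1 and Bhlha9 were chosen after their values were seen. The sequences are the 250 bases before the start, 5′ to 3′ on the gene's strand, from the RefSeq promoter table for GRCm38.p6, the assembly of mm10. They are Diras1 chr10:81025378-81025627 on the minus strand, Ablim1 chr19:57119025-57119274 on the minus strand, Ccdc182 chr11:88293793-88294042 on the plus strand and Bhlha9 chr11:76672220-76672469 on the plus strand. Capitals mark the GC box GGGCGG in Diras1 and Bhlha9, and in Ccdc182 the reverse complement of the CCAAT box.
Diras1: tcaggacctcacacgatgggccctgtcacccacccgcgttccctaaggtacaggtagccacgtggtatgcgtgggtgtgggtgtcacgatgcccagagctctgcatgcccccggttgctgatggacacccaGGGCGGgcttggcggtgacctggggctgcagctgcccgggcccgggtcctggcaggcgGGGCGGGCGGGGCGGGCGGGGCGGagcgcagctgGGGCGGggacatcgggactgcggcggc
Ablim1: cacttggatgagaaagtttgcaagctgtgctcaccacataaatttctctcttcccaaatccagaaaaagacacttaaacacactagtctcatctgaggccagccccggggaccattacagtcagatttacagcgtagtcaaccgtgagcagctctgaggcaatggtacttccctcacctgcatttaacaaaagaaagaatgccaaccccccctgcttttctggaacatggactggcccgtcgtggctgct
Ccdc182: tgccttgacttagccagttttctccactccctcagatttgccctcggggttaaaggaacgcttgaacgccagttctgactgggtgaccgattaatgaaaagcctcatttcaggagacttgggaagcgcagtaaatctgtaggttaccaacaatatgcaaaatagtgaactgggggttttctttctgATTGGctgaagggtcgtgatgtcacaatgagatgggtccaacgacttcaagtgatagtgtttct
Bhlha9: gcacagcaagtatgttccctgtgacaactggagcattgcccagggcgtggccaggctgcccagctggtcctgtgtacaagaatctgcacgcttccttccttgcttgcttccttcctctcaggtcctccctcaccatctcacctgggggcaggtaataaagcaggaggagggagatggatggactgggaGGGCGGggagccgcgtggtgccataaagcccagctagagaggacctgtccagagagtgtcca

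The promoters differ in composition. Diras1, a small GTPase of the Ras family, had 72.8% G and C and 7 GGGCGG matches, several of which overlap in 1 run close to the start. Bhlha9 had 59.2% and 1 match, while Ablim1, an actin-binding LIM protein, had 48.8% and none, and Ccdc182 had 46.0% and none. Across the 32851 promoters of the table the median was 52.4% (quartiles 45.2% and 61.2%) and 32.7% held GGGCGG. Both strands were also searched for TAATTA (a homeodomain core, in 4.84% of the table's promoters), TGANTCA (AP-1, 6.75%), ACAAAG (SOX, 16.5%) and TTTATTG (posterior HOX, 4.20%), and none of these letters occurred in the 4 windows. The motif GGGCGG, the TATA box TATAAA (12.4%) and the CCAAT box (33.8%) were added after the first sequences had been read. TATAAA did not occur and CCAAT occurred once, in Ccdc182. A match is a description of letters and no evidence of binding.

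The peaks sat close to these starts but not all on them. Fold values here and below are the peak caller's enrichment as the authors deposited it, and they rank peaks within a list only. The Diras1 member, chr10:81023726-81026557, had fold 8.72, 5.91 and 6.34 in foot phalanges I, III and V, 6.67, 7.61 and 6.46 in hand phalanges I, III and V, and no metapodial call. Its summits lay 8 to 70 bp after the start. The Ablim1 member, chr19:57115883-57120383, had fold 8.28, 6.42 and 8.65 in foot phalanges I, III and V, 6.27, 6.39 and 7.71 in hand phalanges I, III and V, and no metapodial call. Its summits lay 5 to 169 bp after the start. The Bhlha9 member, chr11:76671547-76674545, covers the gene's start and was called in foot phalanges I, III and V at fold 7.05, 6.54 and 6.95, in hand phalanges III and V at 7.73 and 5.66, and in metatarsal I at 5.88. Hand phalanx I lacked it, and its phalanx summits lay 340 to 649 bp after the start. The Ccdc182 member, chr11:88293402-88296294, had fold 6.34, 6.88 and 7.22 in foot phalanges I, III and V. It had 8.82 and 6.97 in hand phalanges I and III, none in hand phalanx V, and 5.15 in metatarsal I. Its summits lay at −52 to 527 bp from the start.

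The 6 phalanx lists did not call members equally often. Foot phalanges I, III and V called 660, 650 and 672 of the 691, and hand phalanges I, III and V called 581, 600 and 531. The foot count was higher within each digit, and the counts did not overlap. The foot lists averaged 660.7 ± 11.02 members and the hand lists 570.7 ± 35.6 (SD, n = 3 lists each), a difference of 90.0. Set against the regions that each list called, the groups did overlap. Foot phalanges I, III and V held 181.7, 144.7 and 177.6 members per 10000 called regions, and hand phalanges I, III and V held 157.9, 145.05 and 154.0, so that foot III, the longest phalanx list, was the lowest of the 6. The rule lets 1 phalanx list miss a member, and that list was hand V for 160 members, hand I for 110, hand III for 91, foot III for 41, foot I for 31 and foot V for 19. Digits did not order the phalanx lists in the same way, with 620.5 ± 55.9 members in digit I lists (SD, n = 2) and 613.25 ± 62.6 in digit III and V lists (SD, n = 4). That difference of 7.25 lay within the spread between lists, and it turned negative, to −46.0, without foot phalanx III, to −35.8 without hand phalanx V and to −10.25 without metacarpal III.

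**Figure D1:**
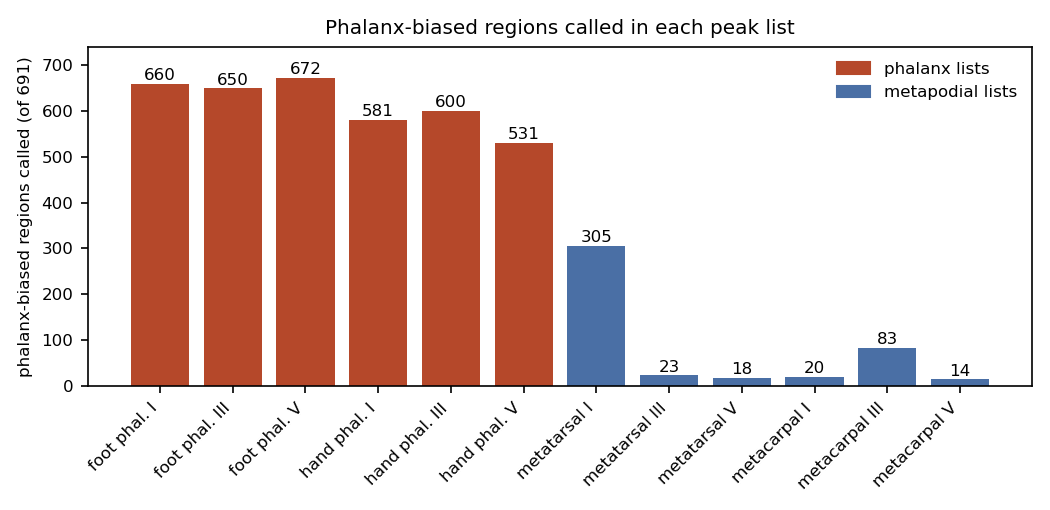
Members called in each of the 12 peak lists, as bars from 0, with the foot lists left of the hand lists among phalanges and the metatarsals left of the metacarpals. The foot phalanx bars stand between 650 and 672, the hand phalanx bars between 531 and 600, and among metapodials the first metatarsal reaches 305 against 14 to 83 in the other 5 lists.

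Of the 691 members, 228 had no metapodial call and 463 had the 1 call that the rule allows. The strictest form, all 6 phalanx lists and no metapodial list, held 78 regions, or 0.119% of all. The opposite rule, at least 5 metapodial and at most 1 phalanx lists, held 760 regions, or 1.16%. Another 161 members were called in all 6 phalanx lists with 1 metapodial call, 150 in 5 phalanx lists with none and 302 in 5 with 1. Just outside the limits lay 650 regions with at least 5 phalanx and 2 metapodial calls, and 881 with 4 phalanx and at most 1 metapodial call.

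The 1 permitted metapodial call was mostly that of the first metatarsal, the bone behind the hallux. Metatarsal I called 305 members, metatarsals III and V called 23 and 18, and metacarpals I, III and V called 20, 83 and 14. Metatarsal I thus held 305 of the 463 calls, or 65.9%, and stood apart from the other 5 lists, while metacarpal I, its counterpart in the thumb, lay among the low ones. Relative to list length, metatarsal I held 68.9 members per 10000 called regions, against 3.92 to 16.6 in the other metapodial lists and 145 to 182 in the phalanx lists. Over both limbs, the digit I lists averaged 162.5 ± 201.5 members (SD, n = 2) and the digit III and V lists 34.5 ± 32.5 (SD, n = 4), a difference of 128, smaller than the spread of the digit I lists. Without metatarsal I the rule was rerun, and only the hand enters that contrast. Metacarpal I then held 91 members, against 273 and 37 in metacarpals III and V, a difference of −64.0. Metatarsal lists averaged 115.3 ± 164.3 and metacarpal lists 39.0 ± 38.2 (SD, n = 3 each), a difference of 76.3, and −2.67 without metatarsal I. With metatarsal I left out of the lists, the rule admitted 1197 regions in place of 691.

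The share of metatarsal I among single metapodial calls was higher at each further phalanx list. Among regions with exactly 1 metapodial call, metatarsal I held 17.6% of 7088 regions with no phalanx call, then 28.4%, 41.6%, 47.5% and 52.6% at 1, 2, 3 and 4 phalanx lists. In the members it held 62.6% of 302 regions at 5 phalanx lists and 72.0% of 161 at 6. Metacarpal III, the longest list, ran the other way, from 63.1% at 0 phalanx lists, through 45.5%, 33.3%, 29.6% and 25.5%, to 18.2% and 17.4% at 5 and 6. None of the other 4 metapodial lists passed 8.74% at any step. The regions of neighbouring steps share no member but share all 12 lists, so the series is a description. In the 650 regions just outside the limit, metatarsal I was 1 of the 2 metapodial calls in 500, or 76.9%, metacarpal III in 304 and metacarpal I in 97.

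**Figure D2:**
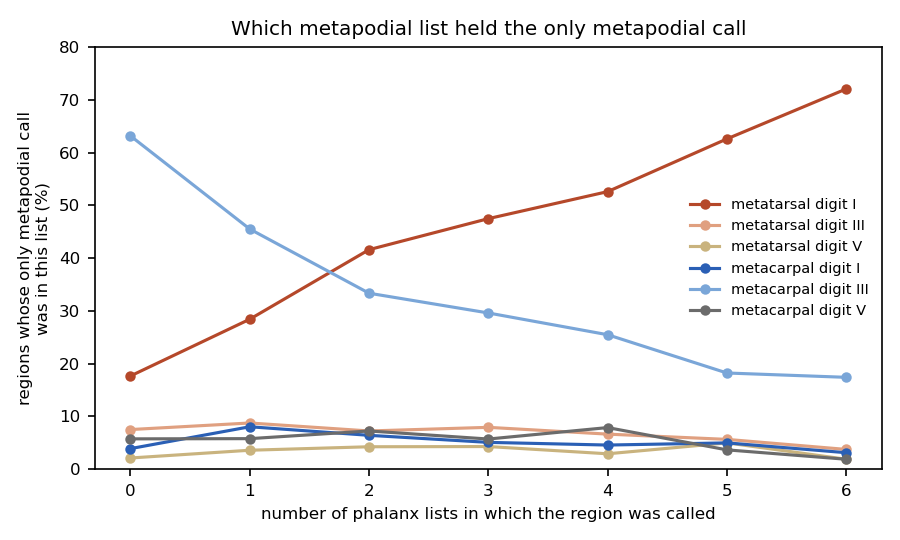
Share in percent of regions with exactly 1 metapodial call that each metapodial list holds, against the number of phalanx lists, 0 to 6, that also call the region. The metatarsal I line reaches 72.0% at 6 phalanx lists, the metacarpal III line falls to 17.4%, and the other 4 lists stay at or below 8.74%.

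Foot-only and hand-only regions were also counted apart. Of 168 regions called in all 3 foot phalanx lists, in no hand phalanx list and in exactly 1 metapodial list, metatarsal I held 123, or 73.2%, and metacarpal I held 1. Another 17 regions were called in all 3 hand phalanx lists, in no foot phalanx list and in exactly 1 metapodial list. Of these, metacarpal III held 8, metatarsal I held 4 and metacarpal I held 3. The lowest −log10 p kept was 49.6 in metacarpal I and 41.5 in metatarsal I, which without read depths gives no order of strictness. Cut to equal length, the lists called 175 members in metatarsal I, 27 and 88 in metatarsals III and V, and 80, 16 and 74 in metacarpals I, III and V, of the 824 regions that the rule then finds. The gap from metatarsal I to the next list was then 0.547 of the range, against 0.763 in the full lists. Metatarsal I was the metapodial list with the most members in all 17 settings that include it.

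Members with a metatarsal I call were called in 73.4% to 98.0% of cases by each phalanx list, against 77.2% to 98.2% for members with no metapodial call. The rule asks at least 5 phalanx calls of every member, so it largely sets these shares in advance, and their likeness is no result. All 6 phalanx lists called 116 of the 305, or 38.03%, against 34.2% of the 228 with no metapodial call. Among the 158 members with another metapodial call the share was 28.5%. The metatarsal I summit lay a median of 38 bp from the phalanx summits, and within 250 bp in 274 of 305. In the 83 members that metacarpal III called it lay a median of 33 bp away. For the 228 members with no metapodial call, the nearest metapodial peak lay a median of 8280 bp away (quartiles 3048 and 18506 bp). In 17 of them it lay within 1 kb. The rule itself sets some gap here, and no other regions were measured for comparison.

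Genes of other cell types were looked at in the same lists. Per 10000 called regions, those nearest the 11 skeletal muscle genes numbered 4.97 in metatarsal I, against 2.80 to 4.06 in the other metapodial lists and 3.26 to 5.81 in phalanx lists. Regions were called near 10 of those 11 genes in metatarsal I, near 6 to 9 in the other metapodials and near 4 to 10 in phalanges, with Ckm at 0 in metatarsal I. Endothelial genes gave 11.97 in metatarsal I, against 11.4 to 11.9 in the other metapodials and 9.78 to 12.7 in phalanges, with Tie1 at 0. Blood and macrophage genes gave 6.78, against 5.19 to 6.73 and 5.34 to 6.52, with Gata1, Hbb-bt and Itgam at 0. Tendon genes gave 10.2, against 9.84 to 10.997 and 8.81 to 10.6, with Tnmd at 0, and epidermal genes gave 7.45, against 6.99 to 8.19 and 7.57 to 8.81, with Krt14 and Krt5 at 0. Nerve genes gave 3.16, against 3.18 to 4.30 and 4.01 to 5.02. Chondrocyte genes gave 30.3 in metatarsal I, against 25.7 to 34.5 in the other metapodials and 27.3 to 30.9 in phalanges. The part of other cell types in the metatarsal I calls was not tested.

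Within their lists the members were among the weaker peaks. Ranked by −log10 p from 0 (weakest) to 100, the median member stood at the 27.4, 31.9 and 30.9 percentile in foot phalanges I, III and V, and at 17.6, 19.8 and 15.7 in hand phalanges I, III and V. Regions called in all 12 lists had medians of 67.5 to 74.9 in the phalanx lists. Other regions called in 5 to 7 lists, which number 6100, had medians of 12.9 to 20.4 there. Where a metapodial list called a member, its median percentile was 6.83 to 19.0, with 19.0 in metatarsal I. Averaged over the phalanx lists that called it, a member's percentile had a median of 24.0 and a range of 4.36 to 59.7, and 7 members passed 50. 

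**Figure D3:**
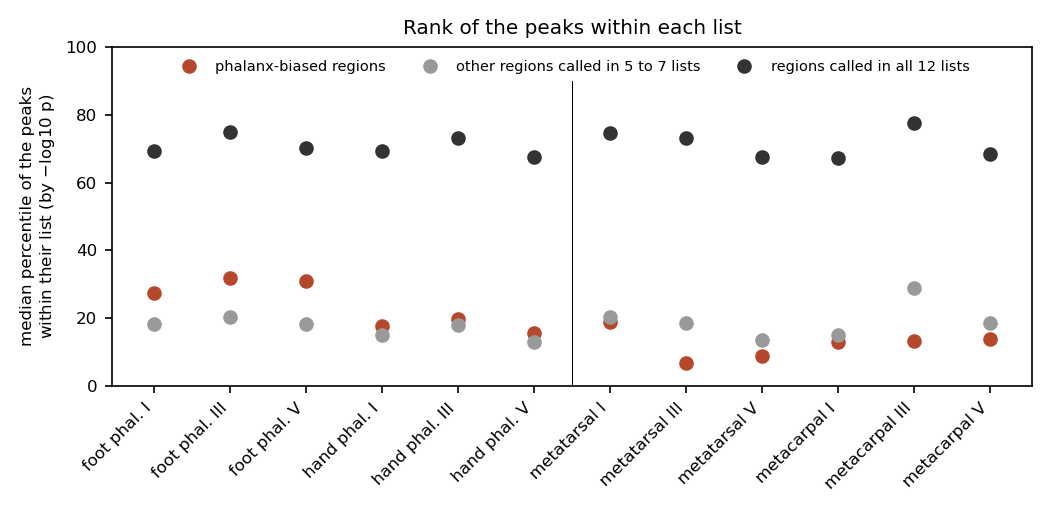
Median percentile of −log10 p within each peak list, phalanx lists left of metapodial lists, for the members, other regions called in 5 to 7 lists, and regions called in all 12. Members stand at 15.7 to 31.9 in phalanx lists and at 6.83 to 19.0 in metapodial lists, below the regions called in all 12 lists everywhere.

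The peaks of a member lined up across phalanges. Its summits spanned a median of 134 bp over the phalanx lists (quartiles 60.0 and 258.5 bp), and in 510 members, or 73.8%, they lay within 250 bp of each other. In the 6100 other regions called in 5 to 7 lists the median span was 116 bp and the share 74.1%. Their span was taken over all lists that called the region, metapodial lists included, so the measures are not alike. The members were 2396 bp wide in the median, against 2092 bp for those regions and 2360 bp for all regions.

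The 10 members with the highest mean percentile show the upper end. A region within Arsj, which encodes a sulfatase, chr3:126438241-126440507, stood at 59.7 and was called in all 6 phalanx lists and in metacarpal III. A region near Tldc2, chr2:157087454-157089162, stood at 58.8, was missing in foot phalanx III and was called in metatarsal I. Next came regions of Zmiz1, a transcriptional coregulator, at 51.8, Prkacb, a catalytic subunit of protein kinase A, at 51.6, and Fam107b at 50.8, of which the last had no metapodial call. Regions of Ccdc102a, Bod1l, Uhrf2 (49.3), Dapl1 (48.7) and Ankrd29 (47.1) completed the 10. No cartilage gene of the lists used here is among them.

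Members lay far from gene starts, as did other regions called in 5 to 7 lists. Only 39 of 691, or 5.64% (95% Wilson interval 4.16% to 7.62%, counting error only), had a gene start or end within 1 kb, against 3.16% of the 760 metapodial-biased regions, 4.46% of the other regions in 5 to 7 lists, 54.4% of regions in all 12 lists and 22.2% of all regions. The median distance to the nearest gene was 43.6 kb (quartiles 16.4 and 113.8 kb), and 200 members, or 28.9%, lay more than 100 kb away. Inside a gene lay 355 members, or 51.4%, against 49.8% of other regions in 5 to 7 lists. Long non-coding RNA genes overlapped 118 members, or 17.1%, against 13.9% of the other regions in 5 to 7 lists. Chromosome 11 held 65 members of its 3532 regions (1.84%), chromosome 5 held 59 of 3846 (1.53%), chromosome 10 held 23 of 3676 (0.626%) and the X chromosome 5 of 1504 (0.332%).

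By nearest gene, members were spread over 637 genes, of which 593 had 1 member, 38 had 2 and 6 had 3 or more. Among these, Usp24, a deubiquitinase, had 5, and Grm4, Mad1l1, Septin9 and Stx18 had 3 each. Most members stood alone, 594 with no other member within 100 kb, and 38 pairs and 6 larger groups held the rest. The groups of 3 around Grm4, Mad1l1 and Septin9 spanned 43.9, 71.5 and 43.8 kb. All 3 at Septin9, 2 at Mad1l1 and 1 at Grm4 had a metatarsal I call. At Usp24, 4 members spanned 192.5 kb, chr4:105960135-106152595, and 1 member of Dapl1 with 2 of Tanc1 spanned 189.3 kb, chr2:59537490-59726829, the last 3 without a metapodial call.

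The largest group lay upstream of Msx1, the homeobox gene of BMP-responsive distal limb and digit tip mesenchyme. It held 5 members within 244.6 kb, chr5:37857006-38101612, and none had a metapodial call. The nearest gene was Msx1 for 1, Stx18, a vesicle fusion syntaxin, for 3, and Nsg1, a neuronal vesicle protein, for 1, and no data here tie them to a gene. The member nearest Msx1, chr5:37857006-37859038, centred 33.4 kb before the start, had fold 8.19, 9.66 and 8.11 in foot phalanges I, III and V, and 10.5, 5.82 and 6.39 in hand phalanges I, III and V. The member inside Stx18, chr5:38080748-38086504, had fold 6.43, 10.6 and 5.38 in foot phalanges I, III and V, and 7.57, 7.29 and 6.17 in hand phalanges I, III and V. Both were called in every phalanx list. Foot phalanx I missed chr5:37941455-37944138, foot phalanx III missed chr5:38022900-38024317, and hand phalanx III missed chr5:38096621-38101612.

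The other regions within this span were set beside the members. Of the 17 regions in the span, foot phalanges I, III and V called 10, 13 and 15, hand phalanges I, III and V called 12, 10 and 10, metatarsals I, III and V called 6, 4 and 3, and metacarpals I, III and V called 3, 5 and 2. The 12 that are no members were called 6, 9 and 10 times in foot phalanges, 7, 6 and 5 times in hand phalanges, 6, 4 and 3 times in metatarsals and 3, 5 and 2 times in metacarpals. These phalanx counts, 5 to 10, and metapodial counts, 2 to 6, overlap. Only 2 of the 17 were called in all 12 lists.

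**Figure D4:**
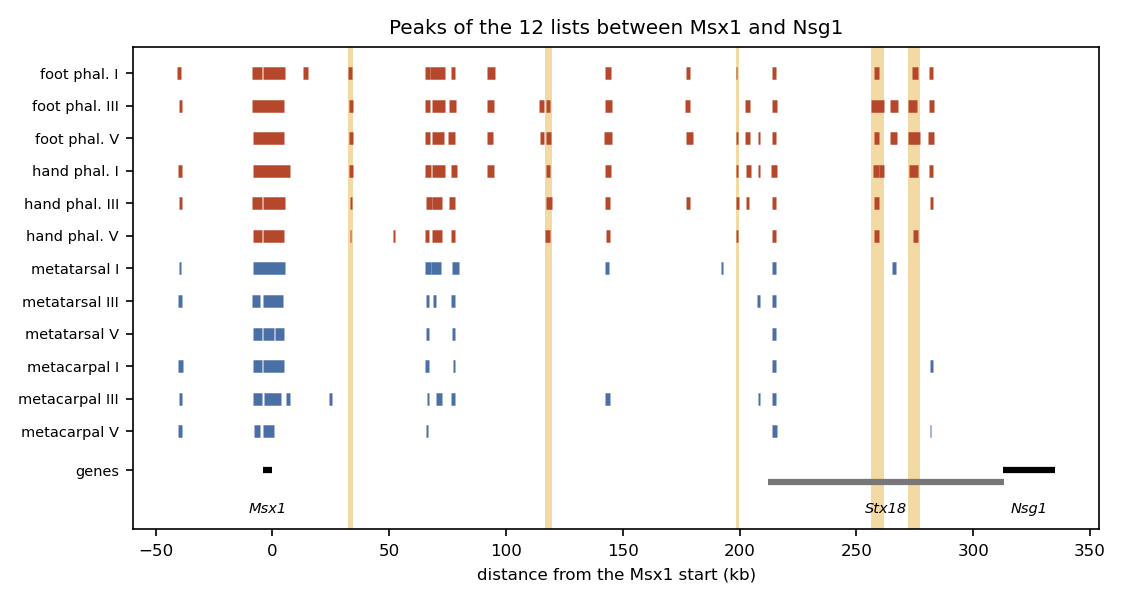
Peaks of the 12 lists in the neighbourhood upstream of Msx1, phalanx rows above metapodial rows, against distance in kb upstream of the Msx1 start, with genes as bars under the rows. The 5 members, marked apart, carry peaks in 5 or 6 phalanx rows and in no metapodial row.

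Among genes of phalanx formation and the distal limb, members lay nearest 7 genes, 1 each, of the group's 277 regions (2.53%, beside 1.05% of all regions), while no metapodial-biased region was nearest any of them. Beside Msx1 these were Msx2, Lmx1b (dorsal limb and nail identity), Prrx1 and Prrx2 (limb mesenchyme homeobox factors), Tbx3 (posterior digits) and Wnt5a (distal outgrowth). Counting only gene bodies with 10 kb on each side, the group had 2 members of 120 regions (1.67%). The Lmx1b member, chr2:33700255-33704257, lay 61.2 kb from the gene's start, with fold 7.93, 6.08 and 8.45 in foot phalanges I, III and V, 6.44, 6.14 and 6.02 in hand phalanges I, III and V, and no metapodial call. The Msx2 member, chr13:53542900-53545197, 71.3 kb away, had fold 8.72, 6.71 and 6.47 in foot phalanges I, III and V, 8.08, 5.88 and 5.88 in hand phalanges I, III and V, and 5.44 in metatarsal I. All 6 phalanx lists called both.

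Tbx3 and Prrx1 showed the same calls in every phalanx list with 1 metapodial exception. The Tbx3 member, chr5:119625227-119629995, 42.9 kb from the gene, had fold 10.0, 6.42 and 7.56 in foot phalanges I, III and V, 8.65, 6.84 and 6.10 in hand phalanges I, III and V, and 5.78 in metatarsal I. The Prrx1 member, chr1:163298643-163301860, inside the gene, had fold 7.40, 8.01 and 5.31 in foot phalanges I, III and V, 8.03, 8.12 and 5.73 in hand phalanges I, III and V, and 5.23 in metacarpal III. The Prrx2 member, chr2:30870107-30877184, lay inside the gene, was missing in hand phalanx III and was called in metatarsal I. The Wnt5a member, chr14:28188425-28189364, lay 315.6 kb away inside Erc2, was missing in foot phalanx III and was called in metacarpal III.

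Growth plate signalling genes had 8 members of 367 regions (2.18%), against 4 metapodial-biased regions. In gene bodies with 10 kb flanks this was 1 of 153 (0.654%). Fzd1, a WNT receptor, had 2. The first, chr5:4622812-4625869, 133.9 kb away, had fold 12.2, 12.7 and 8.86 in foot phalanges I, III and V, 8.25, 9.14 and 5.51 in hand phalanges I, III and V, and no metapodial call. The other, chr5:4484108-4487517, was missing in hand phalanx III and was called in metatarsal I. The Tgfbr2 member, near the type II TGF-beta receptor, chr9:116209625-116211100, had fold 6.43, 7.84 and 6.34 in foot phalanges I, III and V, and 6.73, 5.62 and 5.36 in hand phalanges I, III and V. The Nfatc1 member, chr18:80666492-80673233, inside this calcineurin-regulated factor, had fold 7.40, 6.54 and 6.47 in foot phalanges I, III and V, and 7.91, 6.45 and 5.36 in hand phalanges I, III and V. Neither had a metapodial call. Igf2, a growth factor, Smad3, a TGF-beta effector, and Wnt5b, a WNT ligand of the growth plate, had 1 member each, all 3 with a metatarsal I call and 1 missing phalanx list.

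The other skeletal groups had 0 to 3 members each. Brachydactyly and digit length genes had 3 members of 292 regions (1.03%) and 3 metapodial-biased regions. These members were near Gnas (with a metatarsal I call), inside Hdac4 and 228.0 kb from Sox9, the last 2 without a metapodial call. Joint genes had 2 of 215 (0.930%), near Tgfbr2 and Barx1, a joint homeobox factor whose member, chr13:48672230-48673555, lay 9.86 kb away with fold 8.28, 8.87 and 7.70 in foot phalanges I, III and V, 8.87, 5.62 and 6.46 in hand phalanges I, III and V, and 5.25 in metatarsal I. Resting and proliferating chondrocyte genes had 2 of 214 (0.935%), near Sox9 and the matrilin gene Matn1, and prehypertrophic and hypertrophic genes had 0 of 115. Perichondrium and osteoblast genes had 2 of 105 (1.90%), of which 1 lay near Twist2.

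The patterning and identity groups had 1 member each, at shares on either side of the 1.05% of all regions. Anterior-posterior patterning genes had 1 of 321 regions (0.312%), near Tbx3, against 6 metapodial-biased regions. Limb identity genes had 1 of 65 (1.54%), near the hindlimb selector Pitx1. That member, chr13:55856393-55861407, had fold 8.81, 7.62 and 6.95 in foot phalanges I, III and V, and 6.61 and 6.71 in hand phalanges I and III, with none in hand phalanx V and no metapodial call. Alx4, Hoxa13, Gdf5, Tbx4 and Tbx5 had no member among their 15, 3, 2, 11 and 13 regions, and Hoxd13 was nearest to no region.

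Genes of other cell types had 5 members between them in 6 groups. Muscle genes had 0 of 31 regions, endothelial genes 1 of 77 (Cdh5), tendon genes 1 of 74 (Thbs4), blood genes 1 of 36 (Ptprc, 2.78%), epidermal genes 1 of 47 (Tfap2a, 2.13%) and nerve genes 1 of 27 (Foxd3, 3.70%). Endothelial genes had 3 metapodial-biased regions (3.90%), more than their 1 member. The muscle, tendon, blood, epidermal and nerve genes had no metapodial-biased region. Over all 15 groups, 202 genes had 1772 regions and 27 members, or 1.52%. These counts, of 8 or fewer per group, set no group apart from another.

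**Figure D5:**
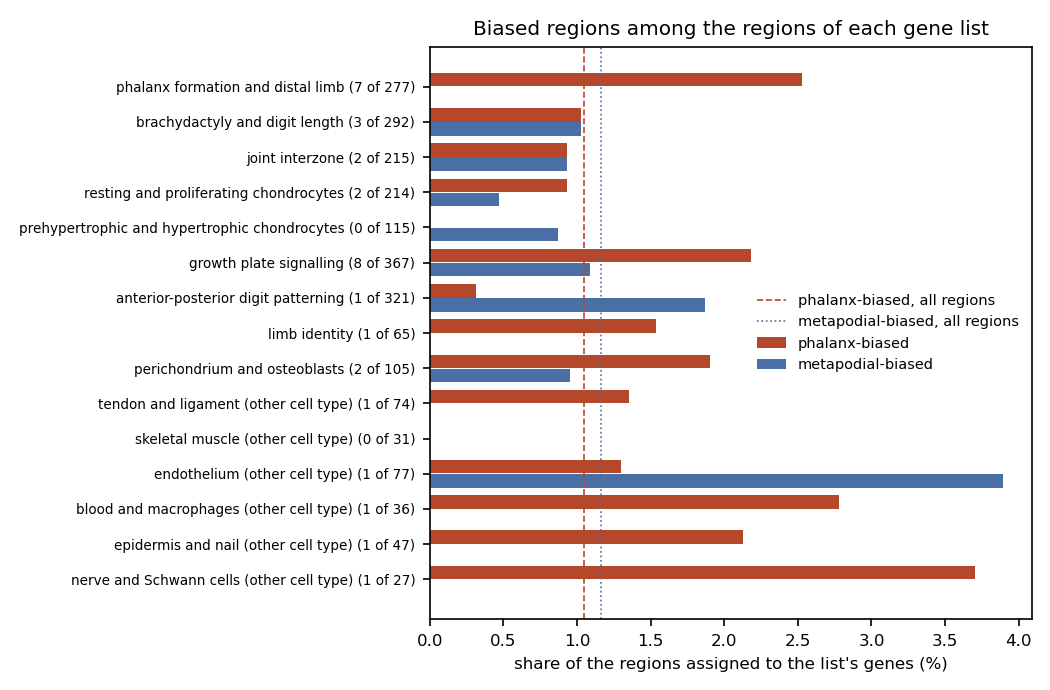
Share in percent of the regions nearest the genes of each group that are members, beside the share that are metapodial-biased, with the shares over all regions, 1.05% and 1.16%, as lines. The longest member bars, nerve genes at 3.70% and blood genes at 2.78%, rest on 1 member each, while distal limb genes at 2.53% rest on 7 and growth plate signalling genes at 2.18% on 8.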

How the data were processed

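ATAC-seq libraries of 12 groups (3 each) were made into 1 peak list per group. Per the submitters' processing notes, the tools were Bowtie2 2.3.4.1, Picard 2.9.0 and MACS3 and the build mm10, with roles not stated. The names of the lists carry IDR (irreproducible discovery rate) and p0.05, without saying to which measure the 0.05 applies. The authors' deposited columns hold a score, a fold enrichment (ratio), −log10 p-values and a summit offset; −log10 q-values were not used. Libraries were joined in each list, so replicate spread and read depth are unknown.

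Peaks were merged in Python 3.11.15 with NumPy 2.4.6, pandas 2.3.3 and SciPy 1.17.1, and drawn with Matplotlib 3.10.9. Merging and selection were checked on simulated data. Each region was given the nearest coding gene within 1 Mb, from its centre to the start where the RefSeq promoter table held it and otherwise (chromosome 18 and other genes the table lacks) to the nearer gene end. Differences between lists in their counts of members are given without p-values, since the rule used the same calls. The genes named are up to 4 members per gene group, the 12 genes with the most members (6 with 3 or more, then the first in alphabetical order of 38 tied at 2), the 10 members of highest mean percentile and 11 landmark genes. The members and gene groups were chosen with earlier results of these data known. Alternatives were the overlap, list length, significance, call limits, counting metapodial peaks within 1 kb as calls, gene assignment and leaving out each list. Some items are not reported here.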

Additional observations from a re-analysis of the deposited data

Results flagged for a closer look

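Among 12 sets of 6 lists looked at, the gap from the highest list to the next was taken as a share of the whole range. In 4 sets it passed 0.625, a critical value for 6 values that served here only as a cut-off for listing. The calls compared are those that the rule or the split by number of lists used. The gaps are therefore descriptions and no test, and no chance rate applies to them. Metatarsal I called 305 members, with a gap to the next metapodial list of 0.763 of the whole range. It also led per list length, with 68.9 members per 10000 called regions (gap 0.805). Among regions with 1 metapodial call it held 72.0% where 6 phalanx lists called the region (gap 0.779). Metacarpal III held 63.1% of single metapodial calls where no phalanx list called the region (gap 0.745). At equal list length the gap of metatarsal I, 175 members against 88 in the next list, was 0.547, and with at least 4 phalanx and at most 2 metapodial lists it was 0.528, both below the critical value. These sets share lists and regions, so they are not independent of each other.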

How the results depend on the processing

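The number of members was 763 when a peak had to cover 50% of the region, 824 at equal list length, 847 with 500-bp peaks and 645 where a metapodial peak within 1 kb also counted as a call. It was 210 from the more significant 50% of each list, 78 under the strictest limits, 2703 with at least 4 phalanx and at most 2 metapodial lists, and 774 to 1197 when 1 list was left out (1150 without hand phalanx I, 1180 without hand phalanx V, 1197 without metatarsal I). Leaving out both metapodial digit I lists, an alternative chosen after seeing the data, gave 1398. Of the 691 members, 374 were kept at 50% cover, 307 at equal length, 653 with 500-bp peaks and 2 among the more significant 50%. The foot minus hand difference kept its direction in all 18 alternatives that give it, at 85.0 to 243.8 without 1 list. It was 50.7 at equal list length, where the counts overlapped, with 680 in foot phalanx III against 720 and 743 in hand phalanges I and V. At 50% cover it was 68.3, and foot phalanx I and hand phalanx I each called 672. The digit I phalanx difference was −1.75 at 50% cover, −61.75 under the wider limits and −46.0 to 29.0 without 1 list. Without 1 list, the digit I metapodial difference was −64.0 to 351.5 and the metatarsal minus metacarpal difference −2.67 to 176.5. Both were negative only without metatarsal I. Where the list left out was a digit I list, the digit I difference came from the other limb alone. This holds for 29.0 (foot, without hand phalanx I), −64.0 (hand, without metatarsal I) and 351.5 (foot, without metacarpal I). The share within 1 kb of a gene start or end was 17.3% at 50% cover, 26.2% among the more significant 50%, 11.1% within 5 kb and 58.5% in gene bodies with 10 kb flanks, and 4.70% to 6.43% without 1 list. The causes of these changes were not tested. The strictest limits fix every list's count, so they give no list difference. No paired analysis was possible because each list joins the 3 libraries of its group and carries no replicate number.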
